A study of Rattus norvegicus with 11 samples.

Results

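Notch signalling genes and an arterial endothelial marker were followed in rat lung by all probe sets of the array whose annotated symbol is exactly one of 10 genes. These are the receptors Notch1, Notch2, Notch3 and Notch4, the ligands Dll4, Jag1 and Jag2, the target genes Hes1 and Hey1, and the gap junction gene Gja5. The rule found 15 probe sets for the 10 genes, out of 31042 probe sets and 14217 named genes on the array, and used no measured value. Of the 15, 1 probe set of Notch4 lay below the background level of 5.72 log2 on all 11 arrays, and the other 14 had a mean above it.

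Lungs were taken from Dahl salt-sensitive rats of 250 to 350 g after 3.5 weeks in hypoxia with SU5416 (3 arrays), in hypoxia alone (4 arrays) or in room air, called normoxia (4 arrays). Hypoxia was an inspired oxygen of about 9.5%, SU5416 is an inhibitor of the receptors of vascular endothelial growth factor (VEGF), and the series text describes the hypoxia and normoxia groups as given vehicle. No group received SU5416 in room air, so an effect of SU5416 alone was not measured. The labels do not say that each array is a separate animal, so the p-values measure only the spread between these arrays. The rats that also received sorafenib were not analysed here. The comparisons ask what chronic hypoxia does to these genes in the lung and what SU5416 adds.

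Notch receptors are cut when a ligand on a neighbouring cell binds them, and their released inner part joins the DNA-binding protein RBPJ to switch on repressors of the Hes and Hey families. In blood vessels, VEGF induces the ligand Dll4, Dll4 activates endothelial Notch, and this sets arterial identity and restrains sprouting. Notch3 works mainly in smooth muscle cells and pericytes, and Gja5 encodes a connexin that couples arterial endothelial cells.

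RBPJ recognises the core TGGGAA, and the promoters of its classical targets hold this core close to the gene's start. Promoters of 250 bases before to 50 after the start were given by RefSeq (build GRCr8) for 8 of the 10 genes. The stretches below, written along the gene's own strand with TGGGAA in capitals, show the core in Hes1, whose values are reported here, and in Hey2 and Hes5, other targets of the same kind.
Hes1, chr11:84213131-84213190 (minus strand): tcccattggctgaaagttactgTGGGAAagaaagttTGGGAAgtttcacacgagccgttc
Hey2, chr1:28641010-28641069 (plus strand): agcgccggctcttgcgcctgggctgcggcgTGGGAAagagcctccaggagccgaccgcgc
Hes5, chr5:170804447-170804506 (plus strand): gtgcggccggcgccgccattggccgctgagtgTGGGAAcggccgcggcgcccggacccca
Hes1 holds 2 copies on 1 strand, starting 123 and 109 bases before the start of the gene. Hey2 and Hes5 each hold a further copy on the opposite strand, 175 and 242 bases before the start and outside the stretches shown. Searched on both strands, TGGGAA was found in 25.7% of 33469 promoters and at least 2 copies in 3.85%, while GTGGGAA, which contains the shorter core, was found in 6.29%. Among the other genes of the group, Notch4 held 2 copies on the opposite strand and Notch3 held 1 copy after its start. The letters were not in the windows of Notch1, Notch2, Jag1, Jag2 and Gja5, nor in those of the further targets Heyl and Nrarp. These matches are descriptions of sequence and no evidence of binding. Hes1, Hey2 and Hes5, which share the core, did not pass the test used below, so their values give no direction to compare.

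None of the 15 probe sets passed the test in any comparison (limma, called at an adjusted p below 0.05 over all probe sets). Between hypoxia with SU5416 and normoxia, 0 of 15 were called, against 0.0612% of all probe sets. Between hypoxia and normoxia, 0 of 15 were called, against 0.00644%, and between hypoxia with SU5416 and hypoxia, 0 of 15, against 0.0258%. At an unadjusted p under 0.05, 3 of 15 probe sets were found between hypoxia with SU5416 and normoxia (20%, all lower, against 12.4% of all probe sets and 7.57% lower), the brighter one of Notch1 and both of Dll4. Between hypoxia and normoxia there were 6 (40%, 5 lower and 1 higher, against 11%, with 7.64% lower and 3.33% higher), and between hypoxia with SU5416 and hypoxia there were 0 (against 7.47%). The 6 were the same 3, Jag2, the brighter probe set of Gja5 and the Notch4 probe set below background. Adjusted p ran from 0.216 to 0.952, from 0.302 to 0.945 and from 0.725 to 0.997 in these comparisons (limma).

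**Figure D1:**
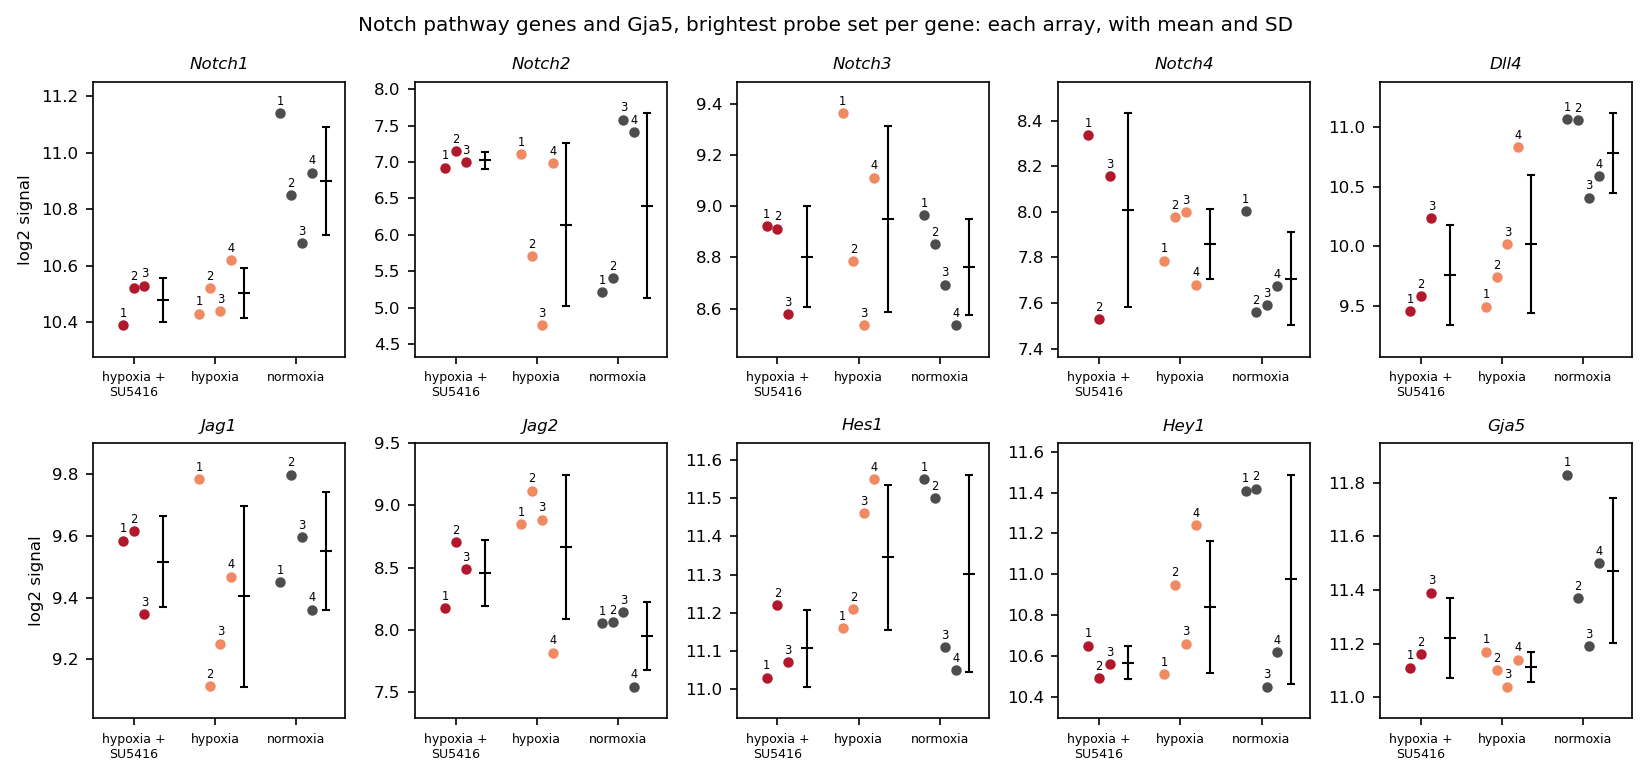
Log2 signal (y axis) of the brightest probe set of each of the 10 genes on every array, by group (x axis), with array numbers above the points and the mean and SD as a black bar. Notch1 is the only panel in which all arrays of hypoxia with SU5416 and of hypoxia lie below all normoxia arrays, and Hey1 and Hes1 are high on normoxia arrays 1 and 2.

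Among the ligands, Dll4, the VEGF-induced ligand of arterial and sprouting endothelium, was lower in both hypoxic groups without passing the test. Its brighter probe set (1379790_at) read 9.46, 9.58 and 10.24 log2 in hypoxia with SU5416. In hypoxia it read 9.50, 9.74, 10.02 and 10.83, and in normoxia 11.07, 11.06, 10.41 and 10.59. All 3 arrays with SU5416 and 3 of the 4 hypoxia arrays lay below every normoxia array, while hypoxia array 4 lay among them. The mean of 9.76 ± 0.42 (SD, n = 3) in hypoxia with SU5416 against 10.78 ± 0.33 (n = 4) in normoxia gave a difference of −1.02 (SE 0.32, 95% interval −1.74 to −0.30), 2.03-fold lower, with a limma adjusted p of 0.263. For hypoxia, at 10.02 ± 0.58 (n = 4), the difference from normoxia was −0.76 (SE 0.30, interval −1.43 to −0.09, limma adjusted p = 0.408).

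The dimmer Dll4 probe set (1394367_at) gave a like picture. It read 8.90, 9.11 and 9.54 log2 in hypoxia with SU5416, then 8.98, 8.72, 8.81 and 10.28 in hypoxia, against 9.83, 9.85, 10.04 and 10.28 in normoxia. Again hypoxia array 4 stood with normoxia and the arrays with SU5416 did not overlap with it. The differences from normoxia were −0.82 (SE 0.35, limma adjusted p = 0.378) with SU5416 and −0.80 (SE 0.32, limma adjusted p = 0.414) in hypoxia alone. Over the 11 arrays the signals of both probe sets correlated with r = 0.826, and with r = 0.681 after subtracting group means, over probe sets that share arrays and a gene. The value after subtracting group means rests largely on hypoxia array 4, and it was not computed without that array. Within normoxia, arrays 1 and 2 were the highest in the brighter probe set and the lowest in the dimmer one. Without hypoxia array 4 the differences of hypoxia from normoxia were −1.03 and −1.16, with 0.218 and 0.101 as adjusted p (limma). Without hypoxia array 2 the difference of the dimmer probe set was −0.64, its smallest in the settings run.

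Dll4 did not separate the hypoxic groups. The brighter probe set differed by −0.26 between hypoxia with SU5416 and hypoxia (interval −0.98 to 0.46, limma adjusted p = 0.901) and the dimmer one by −0.01 (interval −0.79 to 0.76, limma adjusted p = 0.997). The interval of the brighter one holds a difference as large as that between hypoxia and normoxia, so it does not show that the groups are alike.

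Jag2, a ligand made by endothelial and epithelial cells, pointed the other way. It read 8.18, 8.71 and 8.49 log2 in hypoxia with SU5416, then 8.85, 9.12, 8.88 and 7.82 in hypoxia, against 8.06, 8.06, 8.15 and 7.55 in normoxia. All arrays with SU5416 and 3 of 4 hypoxia arrays lay above all normoxia arrays, and hypoxia array 4 again stood with normoxia. The difference from normoxia was 0.51 (SE 0.29, interval −0.15 to 1.16, limma adjusted p = 0.516) with SU5416. In hypoxia alone it was 0.71 (SE 0.27, interval 0.11 to 1.32, 1.64-fold, limma adjusted p = 0.392). This became 1.00 without hypoxia array 4 (limma adjusted p = 0.136) and 0.56 without hypoxia array 2. Across the 11 arrays Jag2 and the dimmer Dll4 probe set ran opposite ways, with r = −0.879, and −0.813 after subtracting group means. The brighter Dll4 probe set gave −0.688 and −0.516. Within groups these values rest largely on hypoxia array 4, the lowest of its group for Jag2 (7.82 against a mean of 8.67). That array was the highest for the dimmer Dll4 probe set (10.28 against 9.20) and for the brighter one. No correlation was computed without it. Centred on the smooth muscle and pericyte list, the Jag2 difference from normoxia with SU5416 was 0.19. The median difference over all probe sets was then −0.35.

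Jag1, the ligand that endothelium and smooth muscle present to each other, showed no separation. It read 9.59, 9.62 and 9.35 log2 in hypoxia with SU5416, then 9.79, 9.11, 9.25 and 9.47 in hypoxia, against 9.45, 9.80, 9.60 and 9.36 in normoxia. All 3 groups overlapped, and the differences from normoxia of −0.04 (interval −0.42 to 0.35) with SU5416 and −0.15 (interval −0.51 to 0.21) in hypoxia were smaller than the SD of the normoxia arrays, 0.19 (limma adjusted p = 0.952 and 0.774).

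Among the receptors, Notch1, which carries most Notch signalling in endothelium, gave the smallest adjusted p of the group against normoxia. Its brighter probe set (1371491_at) read 10.39, 10.52 and 10.53 log2 in hypoxia with SU5416, then 10.43, 10.52, 10.44 and 10.62 in hypoxia, against 11.14, 10.85, 10.68 and 10.93 in normoxia. Every array of both hypoxic groups lay below every normoxia array. The difference from normoxia was −0.42 (SE 0.12, interval −0.69 to −0.15, 1.34-fold, limma adjusted p = 0.216) with SU5416 and −0.40 (SE 0.11, interval −0.65 to −0.15, 1.32-fold, limma adjusted p = 0.302) in hypoxia. The hypoxic groups differed from each other by −0.02 (interval −0.29 to 0.25, limma adjusted p = 0.981).

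The second Notch1 probe set (1390426_at) ran lower without separating the groups. It read 9.42, 9.92 and 9.78 log2 in hypoxia with SU5416, then 9.75, 9.63, 9.84 and 9.72 in hypoxia, against 10.54, 10.09, 9.56 and 9.87 in normoxia. Normoxia arrays 1 and 2 were highest and normoxia array 3 lay below most hypoxic arrays, so the groups overlapped. The differences from normoxia were −0.31 with SU5416 and −0.28 in hypoxia (limma adjusted p = 0.586 and 0.637). With normoxia arrays 1 and 2 left out they were −0.01 and 0.02, while those of the brighter probe set were −0.33 and −0.30.

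Notch4, the receptor most restricted to endothelium, overlapped between groups. Its brightest probe set (1375570_at) read 8.34, 7.53 and 8.16 log2 in hypoxia with SU5416, then 7.79, 7.97, 8.0 and 7.68 in hypoxia, against 8.0, 7.56, 7.59 and 7.67 in normoxia. The differences from normoxia were 0.30 (interval −0.14 to 0.74) with SU5416 and 0.15 (interval −0.25 to 0.56) in hypoxia, with 0.567 and 0.798 as adjusted p (limma). A second probe set (1389847_at) differed by 0.09 and −0.10, and the third (1378533_at) gave only a bound, since all its arrays were below background.

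Notch3, the receptor of vascular smooth muscle and pericytes, and Notch2, which is made in many cell types, did not separate the groups. Notch3 read 8.92, 8.91 and 8.58 log2 in hypoxia with SU5416, then 9.36, 8.79, 8.54 and 9.11 in hypoxia, against 8.96, 8.85, 8.69 and 8.54 in normoxia. The groups overlapped, with differences from normoxia of 0.04 (interval −0.40 to 0.49) and 0.19 (interval −0.23 to 0.60), and limma adjusted p of 0.952 and 0.745. The smooth muscle and pericyte list had 17 of 17 genes measured above background. Its array means were 10.10 to 10.29 with SU5416, 9.64 to 10.02 in hypoxia and 9.80 to 9.89 in normoxia. The Notch3 interval with SU5416 holds the list's median difference of 0.35, so it does not show that Notch3 departs from the list.

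Notch2 varied most of the receptors. It read 6.92, 7.14 and 7.0 log2 in hypoxia with SU5416, then 7.11, 5.71, 4.76 and 6.98 in hypoxia, against 5.21, 5.40, 7.58 and 7.41 in normoxia. Hypoxia arrays 2 and 3 and normoxia arrays 1 and 2 were below the background level, while the other arrays lay near 7 or above. Its differences from normoxia, 0.62 (SE 0.71) with SU5416 and −0.26 (SE 0.66) in hypoxia, were smaller than their errors (limma adjusted p = 0.765 and 0.917). With normoxia arrays 1 and 2 left out they were −0.47 and −1.35, so its direction rests on which arrays enter.

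**Figure D2:**
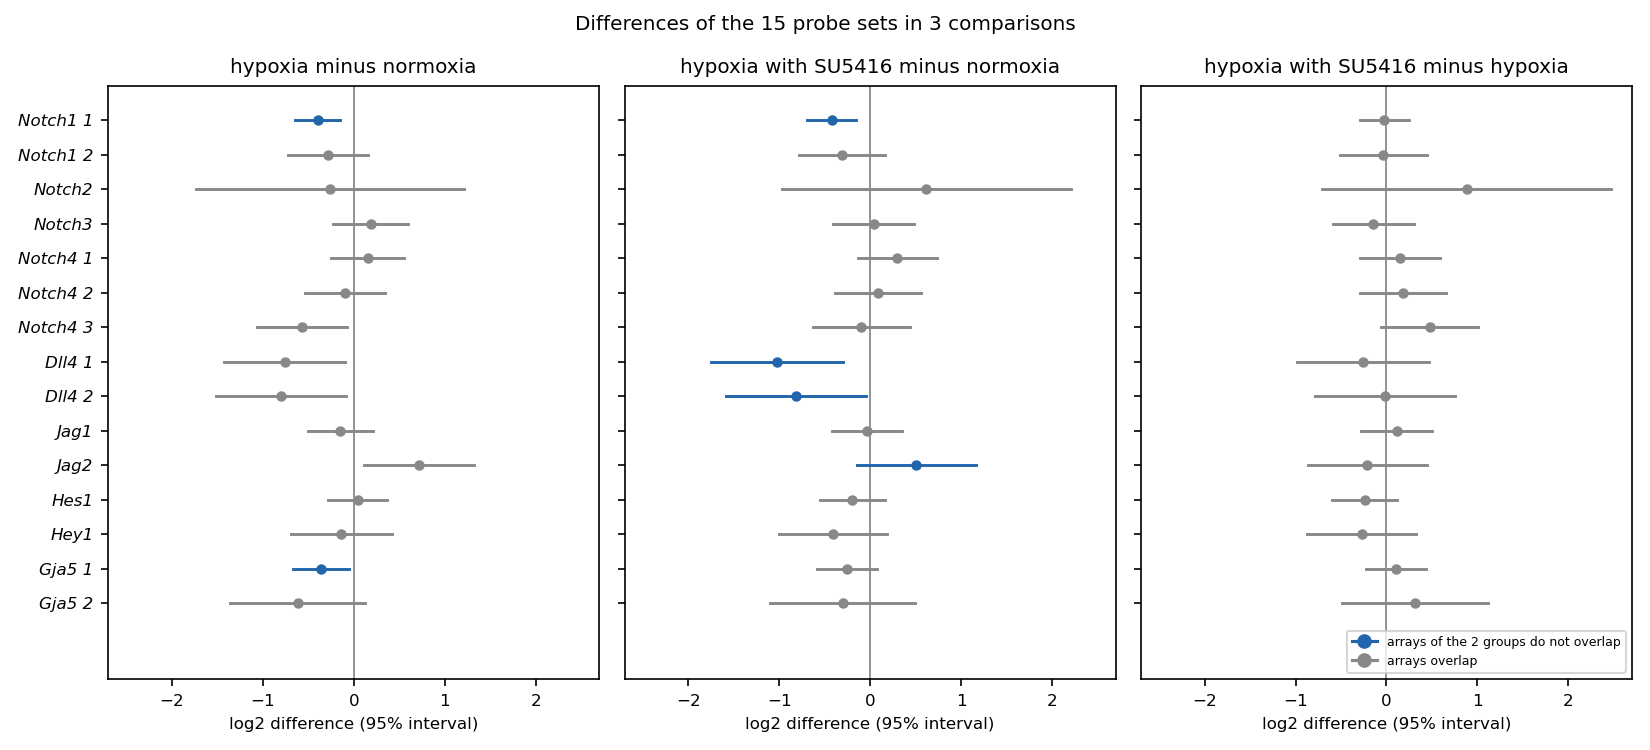
Log2 differences (x axis) with 95% intervals for the 15 probe sets (y axis) in the 3 comparisons, where numbers after a symbol count the probe sets of a gene from the brightest. Blue marks probe sets whose arrays do not overlap between the groups. Intervals of the brighter Notch1 probe set and of Dll4 stay below 0 against normoxia, and every interval crosses 0 between hypoxia with SU5416 and hypoxia.

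The target genes overlapped between all groups. Hes1, the repressor with 2 copies of TGGGAA in the stretch shown above, read 11.03, 11.22 and 11.07 log2 in hypoxia with SU5416. It read 11.16, 11.21, 11.46 and 11.55 in hypoxia, against 11.55, 11.50, 11.11 and 11.05 in normoxia. Normoxia split into 2 high and 2 low arrays, and all groups overlapped. The differences from normoxia were −0.20 (interval −0.55 to 0.16) with SU5416 and 0.04 (interval −0.29 to 0.37) in hypoxia, with limma adjusted p of 0.656 and 0.945.

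Hey1, the repressor that mediates arterial identity, split in the same manner. It read 10.65, 10.49 and 10.56 log2 in hypoxia with SU5416, then 10.51, 10.95, 10.66 and 11.24 in hypoxia, against 11.41, 11.42, 10.45 and 10.62 in normoxia. The 3 arrays with SU5416 were close together, at the level of normoxia arrays 3 and 4. Differences from normoxia were −0.41 (interval −1.0 to 0.19) and −0.14 (interval −0.69 to 0.42), with limma adjusted p of 0.567 and 0.88. Hes1 and Hey1 correlated over the 11 arrays with r = 0.804, and 0.791 after subtracting group means. With the brighter Dll4 probe set the correlation after subtracting group means was 0.713 for Hes1 and 0.701 for Hey1, and with the dimmer one 0.165 and 0.163. With the second Notch4 probe set it was 0.764 and 0.766, but with the brightest Notch4 probe set −0.08 and 0.18. With the brighter Notch1 probe set it was 0.558 and 0.647, over arrays that share RNA quality and tissue makeup.

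The high normoxia arrays of both targets were those with the widest 3′ to 5′ gap. Between the beta-actin probe sets this gap was 2.24 and 1.33 log2 on normoxia arrays 1 and 2. It was 0.56 to 0.67 with SU5416, 0.68 to 0.87 in hypoxia, and 0.51 and 0.6 on normoxia arrays 3 and 4. Hey1, Hes1 and the brighter Dll4 probe set were highest or near highest on normoxia arrays 1 and 2, and the dimmer Dll4 probe set was not. The brighter probe sets of Gja5 and Notch1 were highest on normoxia array 1, which has the widest gap. Hypoxia array 4, with the widest beta-actin gap of its group, was the highest of its group for Hey1, Hes1 and both Dll4 probe sets. Between the GAPDH probe sets its gap was the narrowest of its group, 0.19 against 0.27, 0.41 and 0.52. The part of RNA quality in these differences was not tested.

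**Figure D3:**
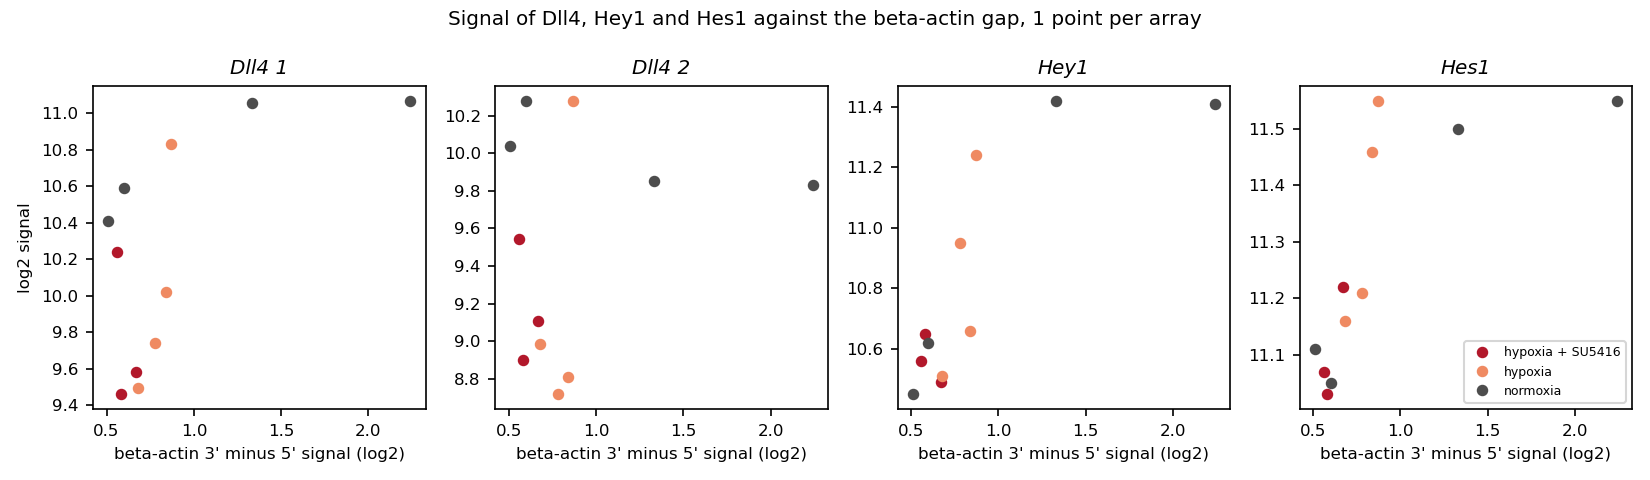
Log2 signal (y axis) of the 2 Dll4 probe sets, brighter first, Hey1 and Hes1 against the gap between 3′ and 5′ beta-actin probe sets (x axis, log2), 1 point per array, coloured by group. The 2 normoxia arrays at gaps of 1.33 and 2.24 are the highest in the brighter Dll4 probe set and Hey1, and lie below the other normoxia arrays in the dimmer Dll4 probe set.

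Leaving out normoxia arrays 1 and 2, so that only arrays 3 and 4 stood for normoxia, turned the sign of Hey1. It then differed from normoxia by 0.03 with SU5416 and by 0.31 in hypoxia, with adjusted p of 0.959 and 0.465 (limma). Hes1 then differed by 0.03 and 0.27 (limma adjusted p = 0.951 and 0.365). In this fit Dll4 remained lower: −0.74 with SU5416 and −0.48 in hypoxia for the brighter probe set, and −0.98 and −0.96 for the dimmer, none called (limma adjusted p from 0.298 to 0.543).

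Gja5, the arterial connexin, was lower in hypoxia without passing the test. Its brighter probe set (1368473_at) read 11.11, 11.16 and 11.39 log2 in hypoxia with SU5416, then 11.17, 11.10, 11.04 and 11.14 in hypoxia, against 11.83, 11.37, 11.19 and 11.50 in normoxia. The hypoxia arrays lay tightly together below all normoxia arrays, although normoxia array 3 exceeded the highest of them by little, and SU5416 array 3 overlapped with normoxia. The difference from normoxia was −0.25 (SE 0.15, interval −0.58 to 0.08, limma adjusted p = 0.523) with SU5416 and −0.36 (SE 0.14, interval −0.67 to −0.05, 1.28-fold, limma adjusted p = 0.396) in hypoxia.

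The dimmer Gja5 probe set (1387207_at) differed from normoxia by −0.30 with SU5416 (SE 0.36) and −0.62 in hypoxia (SE 0.33), with limma adjusted p of 0.775 and 0.527 and overlapping arrays. Without normoxia array 4 these were −0.08 and −0.39, and without normoxia arrays 1 and 2 they were −0.74 and −1.05, so their size rests on which normoxia arrays enter. For the brighter Gja5 probe set the differences without normoxia arrays 1 and 2 were −0.13 with SU5416 and −0.23 in hypoxia, and with the beta-actin gap as a covariate −0.10 and −0.26.

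Over the 11 arrays the brighter probe sets of Gja5 and Notch1 correlated with r = 0.89, and 0.871 after subtracting group means. The dimmer Gja5 probe set correlated with the same Notch1 probe set at 0.445 and 0.144, so the likeness holds for 1 of the 2 Gja5 probe sets.

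By arrays that do not overlap, the brighter Notch1 probe set, both Dll4 probe sets and Jag2 separated hypoxia with SU5416 from normoxia, 4 of 15 (26.7%) against 11.9% of all probe sets. The brighter probe sets of Notch1 and Gja5 separated hypoxia from normoxia, 2 of 15 (13.3%) against 6.13%. No probe set separated hypoxia with SU5416 from hypoxia, where 11.5% of all probe sets did. The median difference over the 15 probe sets was −0.20 with SU5416 and −0.26 in hypoxia against normoxia, and −0.01 between the hypoxic groups, beside −0.04, −0.04 and 0.01 over all probe sets.

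Which cells carry these values cannot be read from whole lung, where fewer cells of a type and less RNA per cell cannot be told apart. Lung identity was clear: 11 of 11 alveolar epithelial markers were above background on average, with surfactant gene Sftpc at 12.93 to 13.89 log2. Of 20 pan-endothelial markers, 18 were named on the array and all 18 had a mean above background. Their array means were 11.62 to 11.69 with SU5416, 11.76 to 11.80 in hypoxia, and 11.59 to 11.93 in normoxia, where arrays 1 and 2 were the high ones. Cardiac muscle markers, 7 of 9 above background, ranged within normoxia from 6.22 on array 1 to 9.89 on array 3. They ranged from 6.69 to 8.31 with SU5416 and from 6.46 to 7.58 in hypoxia.

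Centred on the pan-endothelial list, Notch1 differed from normoxia by −0.30 with SU5416 and −0.40 in hypoxia, and the brighter Dll4 probe set by −0.90 and −0.76. Gja5 then differed by −0.14 and −0.36. Centred on smooth muscle and pericyte genes, Notch1 stood at −0.73 and Dll4 at −1.33 between hypoxia with SU5416 and normoxia (limma adjusted p = 0.0556 and 0.0711). These were the lowest adjusted p for these brighter probe sets in that comparison in the settings run. The centring lowers every probe set by the same amount, to a median difference of −0.35 over all probe sets. That lowering is contained in these values. Of the 17 smooth muscle and pericyte genes 13 were higher with SU5416 than in normoxia (median 0.35). Of these genes 0 passed the test in limma, while 8 were higher and 1 lower at an unadjusted p under 0.05, against 12.7% of all genes. The arrays of 8 did not overlap, against 11.9% of all probe sets. The part of tissue composition in the Notch values was not tested.

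**Figure D4:**
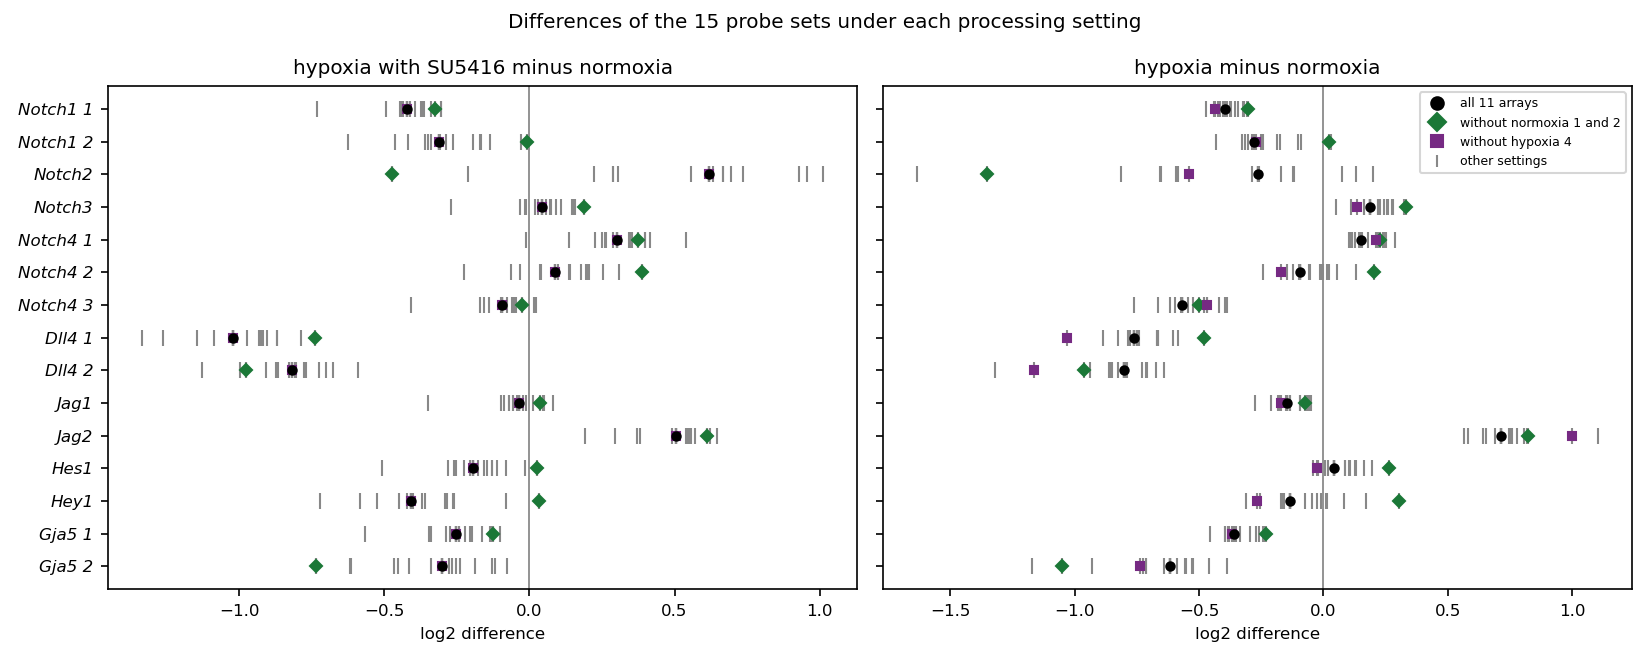
Log2 differences (x axis) of the 15 probe sets under all settings, for hypoxia with SU5416 (left) and hypoxia (right) minus normoxia. Black circles use all 11 arrays, green diamonds omit normoxia arrays 1 and 2, purple squares omit hypoxia array 4, and ticks are the remaining settings. The brighter Notch1 set, both Dll4 sets and both Gja5 sets stay left of 0, Jag2 stays right of it, and Hey1 and Hes1 cross it.

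No other gene of the pathway passed. Of 47 other pathway genes, 37 were named on the array and 35 of these had a mean above background, and 0 passed the test in any comparison. Against normoxia, 13 were higher and 24 lower with SU5416 (median −0.05), and 15 higher and 22 lower in hypoxia (median −0.03). At an unadjusted p under 0.05 there were 1 higher and 3 lower with SU5416, and 0 higher and 2 lower in hypoxia, of 37 genes, against 12.7% and 9.59% of all genes.

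Nrarp, a target that in turn damps Notch signalling, had the smallest adjusted p of the list. Its brightest probe set (1382138_at) read 9.41, 9.52 and 9.47 log2 in hypoxia with SU5416, then 9.47, 9.64, 10.28 and 9.80 in hypoxia, against 10.19, 10.31, 10.34 and 10.26 in normoxia. All arrays with SU5416 lay well below all normoxia arrays, and hypoxia lay between with array 3 at the normoxia level. The difference from normoxia was −0.81 (SE 0.17, 1.75-fold, limma adjusted p = 0.117) with SU5416 and −0.48 (SE 0.16, limma adjusted p = 0.351) in hypoxia.

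The Nrarp value with SU5416 was called in 3 of 23 other settings, after centring on smooth muscle genes, without the dimmer probe sets and with trend and robust variance (limma adjusted p = 0.0428, 0.0351 and 0.0482, within a range of 0.0351 to 0.327). Its second probe set (1375277_at) differed by −0.08 with SU5416 and −0.09 in hypoxia, and the third was below background, so its probe sets disagree.

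The remaining targets gave no common direction. Heyl, the Hey family repressor of vascular smooth muscle, averaged 9.17 ± 0.24 log2 in hypoxia with SU5416 (n = 3) and 8.45 ± 0.22 in normoxia (n = 4), a difference of 0.72 (SE 0.23, limma adjusted p = 0.262) with no overlap, but its second probe set differed by 0.10. Hey2 differed from normoxia by 0.06 with SU5416 and by 0.26 in hypoxia, and Hes5 by 0.05 and −0.06. The second Hes5 probe set, about as bright, differed by 0.31 and 0.30 with overlapping arrays. Thus, by the brightest probe sets, Nrarp was lower and Heyl was higher. Hes1, Hes5 and Hey2, which hold the core near their starts, differed from normoxia by −0.20 to 0.26 with overlapping arrays, again by the brightest probe sets.

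In the nuclear complex, 8 of 8 genes measured were lower with SU5416 than in normoxia by their brightest probe set (median −0.12, 0 passed), which includes the DNA-binding partner Rbpj at −0.16 and the acetyltransferase Kat2b at −0.36 (SE 0.10, limma adjusted p = 0.199, no overlap). In hypoxia 3 of the 8 were higher and 5 lower, with Rbpj at 0.01. Other probe sets of these genes disagreed: with SU5416 the second of Rbpj stood at 0.13, the second of the corepressor Ncor1 at 0.14, and those of the acetyltransferase Crebbp between −0.97 and 0.81. Among genes of ligand endocytosis and ubiquitin transfer, the ligase Mib2 differed by −0.35 with SU5416 and −0.29 in hypoxia without overlap (limma adjusted p = 0.31 and 0.418), against 0.03 and −0.01 by its second probe set. Receptor processing enzymes, 7 measured, had a median near 0 with SU5416 and of −0.04 in hypoxia.

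**Figure D5:**
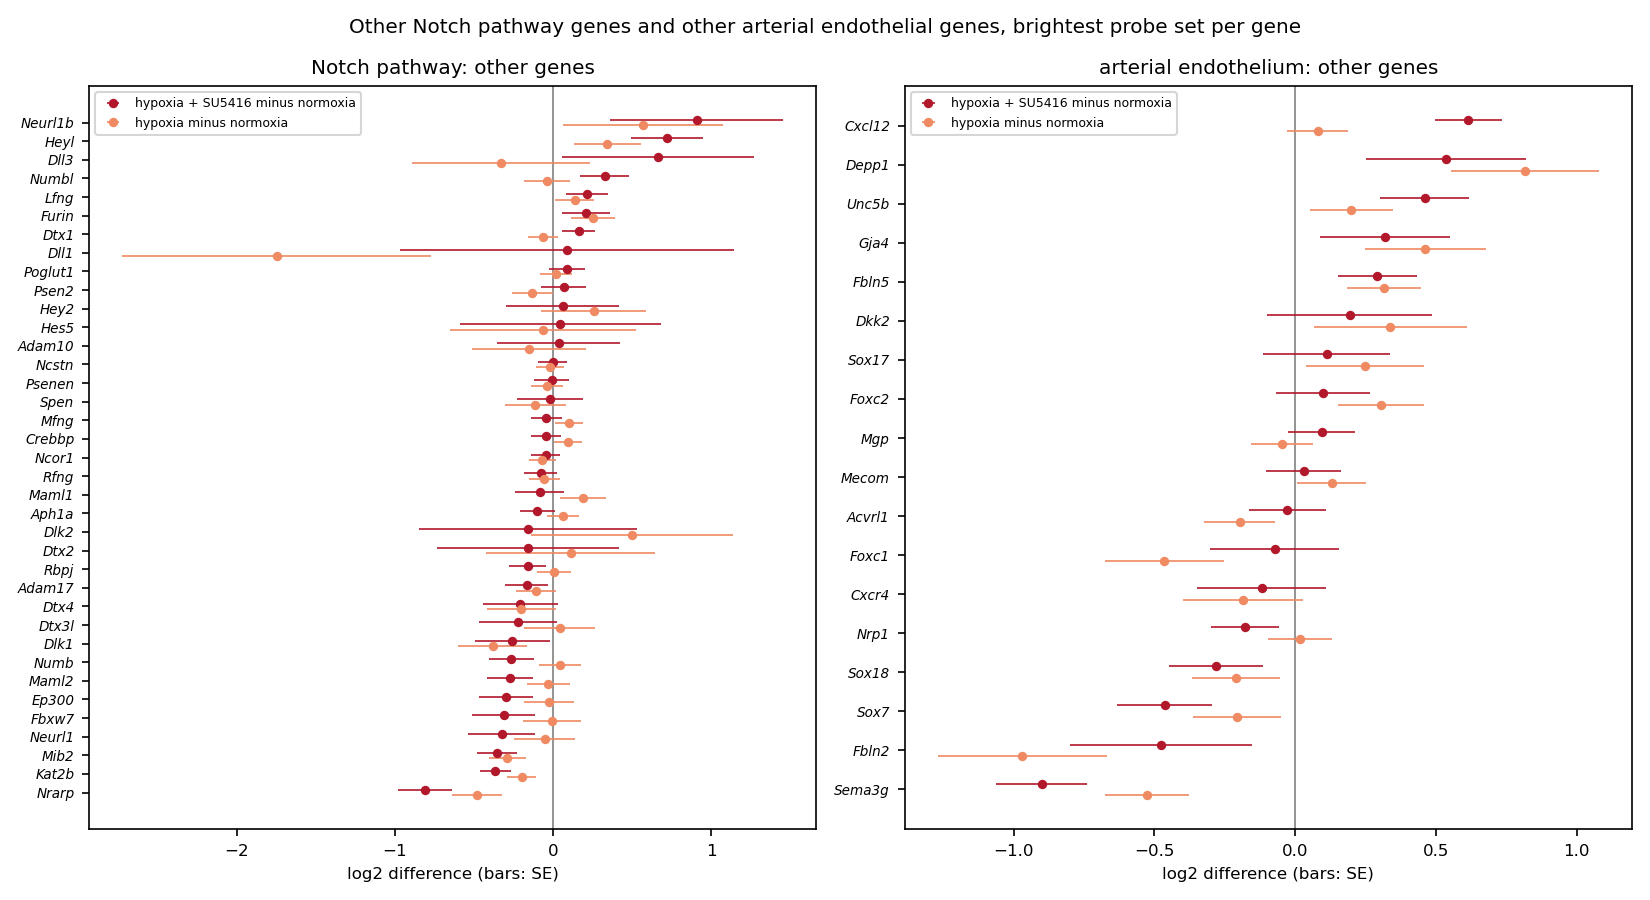
Log2 differences from normoxia (x axis, bars are SE) for 37 other Notch pathway genes (left) and 18 other arterial endothelial genes (right), brightest probe set per gene, with hypoxia with SU5416 in dark red above hypoxia in orange. Nrarp and Sema3g are the lowest with SU5416 at −0.81 and −0.90, and Heyl and Cxcl12 are among the highest.

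Arterial endothelial genes beyond Gja5 also split. Of 20, 18 were named on the array and 17 had a mean above background, and 0 passed in any comparison. Against normoxia, 10 were higher and 8 lower with SU5416 (median 0.06), and 10 higher and 8 lower in hypoxia (median 0.05).

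Sema3g, a semaphorin secreted by arterial endothelium, was nearest to a call. It read 11.15, 11.25 and 11.44 log2 in hypoxia with SU5416, then 11.56, 11.43, 11.65 and 11.98 in hypoxia, against 12.35, 12.36, 12.06 and 11.95 in normoxia. The arrays with SU5416 lay below all normoxia arrays, overlapped with hypoxia at its lowest array, and hypoxia array 4 once more reached normoxia. The difference from normoxia was −0.90 (SE 0.16, 1.87-fold, limma adjusted p = 0.0822) with SU5416 and −0.53 (SE 0.15, limma adjusted p = 0.306) in hypoxia. A second probe set, at −0.87 and −0.68, pointed the same way (limma adjusted p = 0.302 and 0.433). The value with SU5416 was called in the same 3 of 23 other settings as for Nrarp (limma adjusted p from 0.0188 to 0.293 over all 23).

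Other arterial genes were higher. Cxcl12, the chemokine ligand of Cxcr4, averaged 11.71 ± 0.15 log2 with SU5416 (n = 3) and 11.10 ± 0.13 in normoxia (n = 4), a difference of 0.62 (SE 0.12, limma adjusted p = 0.1), and its 3 probe sets disagreed between the hypoxic groups at 0.54, −0.65 and 0.60. The netrin receptor Unc5b was higher by 0.46 (limma adjusted p = 0.294) and its second probe set by 0.59. Gja4, the connexin that partners Gja5 in arterial endothelium, differed by 0.32 with SU5416 and 0.46 in hypoxia (limma adjusted p = 0.612 and 0.469), opposite in sign to Gja5.

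The transcription factor Sox7 differed by −0.46 with SU5416 (limma adjusted p = 0.317), and Sox17, which induces Notch genes in arterial endothelium, by 0.11 and, in hypoxia, 0.25. In hypoxia alone the forkhead target Depp1 stood at 0.82 and the matrix protein Fbln2 at −0.97, both without overlap and not called (limma adjusted p = 0.344 and 0.332).

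Other genes of sprouting endothelium stand beside Dll4. Of 7 tip cell genes measured, 5 were higher and 2 lower with SU5416 than in normoxia (median 0.23), and 6 were higher than in hypoxia (median 0.32). One was called: Apln, the apelin peptide of sprouting endothelium, fell with SU5416 by 1.19 from normoxia (SE 0.16, limma adjusted p = 0.0488), with its second probe set at −0.96 (limma adjusted p = 0.105). Its arrays read 9.82, 10.35 and 10.41 log2 with SU5416, then 10.94, 10.82, 10.98 and 11.21 in hypoxia, against 11.51, 11.47, 11.24 and 11.30 in normoxia. The arrays with SU5416 lay below all hypoxia arrays. Those of hypoxia lay below normoxia only by 11.21 against 11.24 (limma adjusted p = 0.392), and the second probe set overlapped between these groups. Dll4 did not separate SU5416 from hypoxia. Pgf, a growth factor of the VEGF family, pointed the other way, at 0.90 with SU5416 and 0.78 in hypoxia without overlap (limma adjusted p = 0.18 and 0.296). Apln was called in 5 of 23 other settings, one of them without hypoxia array 4, and not in the other 18 (limma adjusted p from 0.00739 to 0.234). The VEGF receptor Kdr, part of the target of SU5416, differed by −0.49 with SU5416 (SE 0.11, limma adjusted p = 0.136, called in 3 of 23 settings) and −0.25 in hypoxia (limma adjusted p = 0.432). Mmrn2, an endothelial matrix protein, stood at 0.53 and 0.48 without overlap (limma adjusted p = 0.179 and 0.293). Kdr and Mmrn2 belong to the pan-endothelial list and not to the tip cell genes. Of the 18 genes of that list measured, 6 were higher and 12 lower with SU5416 than in normoxia (median −0.13). In hypoxia 9 were higher and 9 lower than in normoxia (median −0.01).

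Genes with array patterns most like those of the group were found by Pearson r over the 11 arrays after subtracting group means, among 12677 genes above background. For Dll4 the nearest were Cdipt and Dtd1, both at r = 0.958, and for Notch1 Ip6k2 at 0.951 and Luc7l at 0.947. Hey1 was nearest to Trim8 (0.974) and Lzts2 (0.963), Hes1 to Lmbrd1 (0.965), and Gja5 to Kmt5c (0.953). For Notch3 it was Alg12 (0.926), for Notch4 Kctd13 (0.944) and for Jag1 Kcnk1 (0.901). None of the 5 nearest genes of these members belongs to the Notch or arterial lists, and with 11 arrays that share depth, RNA quality and tissue makeup these are descriptions.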

How the data were processed

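Expression was measured on 11 Affymetrix rat arrays from lung RNA (Trizol extraction, 6 ug total RNA labelled as biotin cRNA, per the labels). The deposited values are log2 signals, 1 per probe set and array. The submitters' processing notes name RMA without a version. A trimmed mean (2% off both tails, linear scale) of 500 recurs across arrays, as scaling to a target gives, so the summary method is uncertain. The values were used as deposited.

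Of 31099 probe sets, 57 array controls were set aside. Symbols came from the array's annotation: 20826 probe sets name 1 gene, 436 several and 9780 none. The background level is the 95th percentile of 27 Bacillus control probe sets. One linear model held all 11 arrays and fitted each group's mean (lmFit and eBayes of limma 3.58.1, R 4.3.3; two-sided, Benjamini-Hochberg over 31042 probe sets). Differences are means of log2 values, with SD between arrays or SE from the model. Precision is limited by how few arrays there are. The model was tested on simulated data. Each gene is represented by its brightest probe set.

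All member probe sets are given. From each other list the rule names called genes and otherwise up to 4 of smallest p per comparison, of which only some are named here, few of them cell type markers; Rbpj, Hey2, Hes5, Sox17 and Gja4 were added after their values were seen. Members and lists were chosen with earlier results of these data known. Alternatives were other normalizations, filters, variance models, weights, thresholds, a replicate block, the beta-actin gap as a covariate, and leaving out arrays; omitting normoxia 1 and 2 with hypoxia 4 was chosen after seeing the data. Promoters come from RefSeq (GRCr8). Figures were made with Python 3.11.15 and matplotlib 3.10.9.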

Additional observations from a re-analysis of the deposited data

Results flagged for a closer look

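Jag2 on normoxia array 4 read 7.55 log2, below the other normoxia arrays by a gap of 0.85 of the group's whole range. It stood apart from the other arrays of its group, as 1 of 30 groups of 4 arrays examined did, and chance gives about 1 in 20. The cause was not tested.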

How the results depend on the processing

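None of the 45 differences of the 15 probe sets was called in any of 23 other settings, and the smallest adjusted p (limma) was 0.0556. The sign changed in at least 1 setting for 21 of 45, though not against normoxia for the brighter Notch1 probe set, Dll4, Gja5 or Jag2. The counts over all probe sets moved more. For hypoxia minus normoxia, against 2 calls (1 higher, 1 lower), 1 was called (0 higher, 1 lower) after quantile normalization, median, endothelial or smooth muscle centring, with only the 2 groups, with trend and robust options, or with the replicate block. There were 0 without the dimmer probe sets (1824 of 15521 at unadjusted p under 0.05), 4 with the actin covariate, 99 without normoxia arrays 1 and 2, and 102 also without hypoxia array 4, a setting chosen after seeing the data. Leaving out 1 array gave 1 to 14: 14 without hypoxia array 4, 4 without normoxia 1, and 1 without normoxia 4, hypoxia 1, hypoxia 3 or SU5416 array 1. For hypoxia with SU5416 minus normoxia, against 19 calls (11 higher, 8 lower), there were 43 after quantile normalization. Smooth muscle centring gave 366 (21 higher, 345 lower, at a median difference of −0.35 over all probe sets). There were 214 without the dimmer probe sets, 8 with only the 2 groups, 145 with trend and robust options and 32 with array weights. The replicate block gave 6, leaving out the 3 arrays gave 34, and adjusted p below 0.10 gave 108. Endothelial centring gave 12 higher and 3 lower. Leaving out 1 array gave 8 to 38: 38 without hypoxia 4, 12 without normoxia 1, 11 without hypoxia 1, 9 without SU5416 array 1, and 8 without normoxia 4 or hypoxia 3. For hypoxia with SU5416 minus hypoxia, against 8, there were 14, 5, 16, 24, 18, 16 and 16 under quantile normalization, smooth muscle centring, trend and robust options, array weights, the actin covariate, without normoxia 1 and 2, and without the 3 arrays, and 18 at adjusted p below 0.10. Leaving out 1 array gave 7 to 15: 15 without SU5416 array 3 and 14 without normoxia 1. The cause was not tested. The replicate numbers are shared by label only: same-numbered arrays correlated at −0.125 to 0.128 over 10 pairs, 2 of them above 0.1. The replicate block changed no call of a member. The width of the intervals, from 3 or 4 arrays a group, limits what the members can show.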

Other observations

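Markers of blood cells and fibroblasts were also measured. Of 12 lymphocyte genes measured, 11 were lower than in normoxia with SU5416 (median −0.47) and 11 in hypoxia (median −0.44), of which 0 passed the test in limma and 5 had an unadjusted p under 0.05 in each comparison, against 12.7% of all genes with SU5416 and 9.59% in hypoxia. Their array means were 7.75 to 7.88 log2 with SU5416, 7.74 to 8.03 in hypoxia and 7.94 to 8.53 in normoxia. Of 10 macrophage genes measured, 7 were higher with SU5416 than in normoxia and 8 higher than in hypoxia (medians 0.52 and 0.28). Of the 10, 0 passed in limma. At an unadjusted p under 0.05 there were 4 higher and 1 lower in each comparison, against 12.7% and 7.3% of all genes. In hypoxia 8 were higher than in normoxia (median 0.13), of which 0 had an unadjusted p under 0.05. Between the hypoxic groups the lymphocyte median was 0.02. Fibroblast genes, 8 measured, were higher in 7 with SU5416 than in normoxia (median 0.35), and 0 passed in limma. Among them 3, all higher, had an unadjusted p under 0.05, against 12.7% of all genes. The part of these cells in the Notch values was not tested.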
